A study of Arabidopsis thaliana with 8 samples.

Results

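The 102 Arabidopsis thaliana probe sets described here had a higher signal after abscisic acid (ABA) than after mock spraying in each of 4 pairs of arrays. A probe set is a group of short probes on the array that reads 1 transcript or a few closely related ones. A control probe set was not eligible, and a probe set was taken if its mean signal over the 8 arrays was at least 100 and if log2(signal + 10) was at least 0.8 higher in ABA than in mock in every pair of arrays of the same genotype and replicate number. Of the 14363 probe sets that passed the signal floor, out of 22810 on the array, 116 met the differences (0.808%). Of these, 14 whose genes are left out by name (the dehydrin LTI30, the expansin EXPA16 and the like) were not used, which gave the 102. The mirror condition, at least 0.8 lower in ABA in every pair, was met by 16 probe sets (0.111%). The members were thus chosen by their ABA minus mock differences, which are given below as a description and without a test.

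Arrays were hybridised with RNA from leaves, extracted from green tissue, of 4-week-old plants of the Columbia wild type (Col-0) or of the abh1 mutant; the labels do not name the abh1 allele. Plants were sprayed with water (mock) or with water holding 50 µM ABA and were collected 4 h later. There were 2 arrays, numbered 1 and 2 in the labels, for each of the 4 groups (2 genotypes, each with mock or ABA), and each array carried RNA pooled from 3 biological replicates, so the spread between arrays is that between pools. In whole leaves, fewer cells of a type and less RNA per cell cannot be told apart.

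ABA is the hormone that plants accumulate when they dry out. Receptors that bind it block a class of protein phosphatases, which frees kinases that activate transcription factors, and these switch on genes for protective proteins, osmolytes, surface lipids and transporters while stomata close. ABH1 encodes the larger protein of a nuclear pair that holds the cap of new messenger RNAs and acts in their splicing and in microRNA processing, and its loss makes plants hypersensitive to ABA. The genes of the receptors, phosphatases and kinases, and ABH1 itself, are not analysed here, because no probe set was paired with them in the annotation used, so the abh1 label was not checked by its own transcript.

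Of the 102 members, 40 are paired with 1 gene each, 1 with several genes and 61 with none in the annotation used. The share with 1 gene was 39.2%, against 54.7% of all probe sets that passed the floor. For 38 of the 40 genes the symbol is a locus code, so the roles given below come from the protein family each gene belongs to, as background, and a gene without a stated role is given by its code alone. The role groups were made after the values had been seen.

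The signal floor acted unevenly on the members. The mean of the 4 mock arrays was at least 100 for 80 of them, and the other 22 passed the floor only through their ABA arrays. A mock signal under the 10th percentile of its array, where a MAS5 signal (the summary value of Affymetrix software) is close to nothing, occurred in 5 members, AT1G24600, AT3G57010, AT4G28703, AT3G17520 and AT2G23910, and no fold is given for these. The median signal of the members was 304 over the mock arrays and 1121 over the ABA arrays, while the median mock signal of all probe sets kept was 424. Thus in mock leaves the typical member lay at a level below which 37.7% of the probe sets kept were found. The members' mean signal over all arrays ran from 102 to 10980.5, and it was at least 1000 in 39 of them. Their mock means ran from 11.8 to 7107, and 259516_at alone among them was above 2852, so in the plot of mock against ABA signal the upper part of the range of mock levels holds 1 member.

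**Figure D1:**
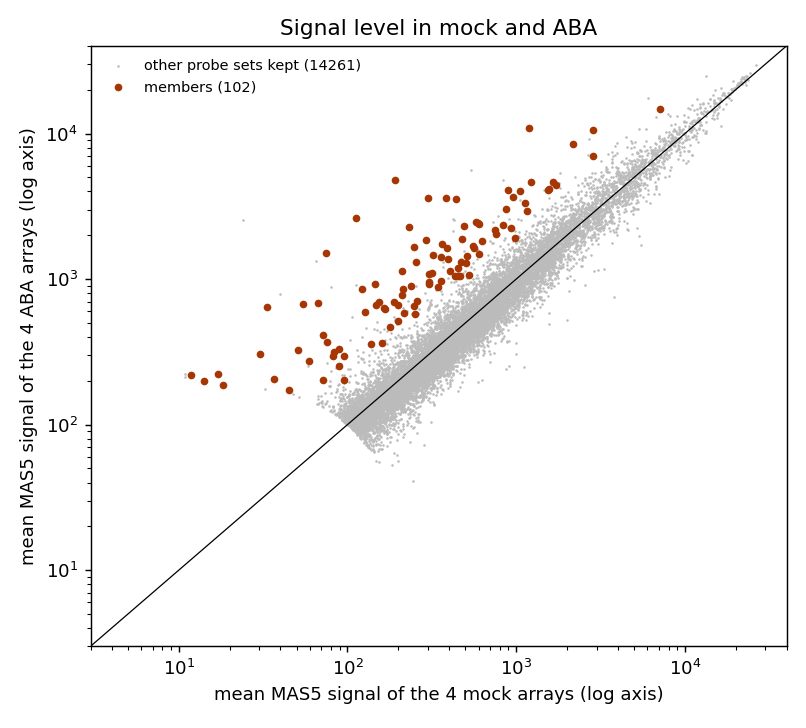
Mean MAS5 signal of the 4 mock arrays (horizontal, log axis) against the mean of the 4 ABA arrays (vertical, log axis) for the 102 members and for the other 14261 probe sets kept, with the line of equal signal. The members lie above the line by the way they were chosen, and 22 of them have a mock mean under 100.

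The size of the differences varied widely among the members. All 4 differences were at least 2 (log2 scale) in 10 members and at least 1 in 59, and the smallest of the 4 was under 1 in the other 43. The median of a member's mean difference was 1.81. The difference between the largest and smallest of a member's 4 values had a median of 1.15; it was at least 2 in 20 members and under 0.5 in 5. Across members, the mean difference in wild type and that in abh1, which come from separate arrays, had a Pearson correlation of 0.67 and a Spearman correlation of 0.59 (n = 102 probe sets that the rule had already bounded from below). The mean difference and the mock signal had a Spearman correlation of -0.38, with the mock signal part of both.

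Wild-type pair 1 carried the largest differences. The median over the members was 2.11 in wild-type pair 1, 1.31 in wild-type pair 2, 1.81 in abh1 pair 1 and 1.61 in abh1 pair 2. The largest of a member's 4 differences was in wild-type pair 1 in 61 members and the smallest was in wild-type pair 2 in 56. Among all probe sets kept, wild-type pair 1 held the largest difference in 20.2% and wild-type pair 2 the smallest in 27.2%. The standard deviation (SD) of the differences over probe sets was 0.75 in wild-type pair 1, 0.44 in wild-type pair 2, 0.55 in abh1 pair 1 and 0.63 in abh1 pair 2. A difference of at least 0.8 was reached by 6.51%, 4.57%, 5.19% and 4.16% of the probe sets kept in these 4 pairs. The wild-type ABA arrays were also the least alike of the 4 groups, with a Pearson correlation of log2 signal over the probe sets kept of 0.864 against 0.922 to 0.953 in the other groups. Wild-type pair 2 limited the membership more than wild-type pair 1 did, in a comparison chosen after the data were seen: without it, and with the same condition in the other 3 pairs, 235 probe sets would have been taken, and without wild-type pair 1 it would have been 110. The plot of differences by pair shows wild-type replicate 2 along the lower edge.

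**Figure D2:**
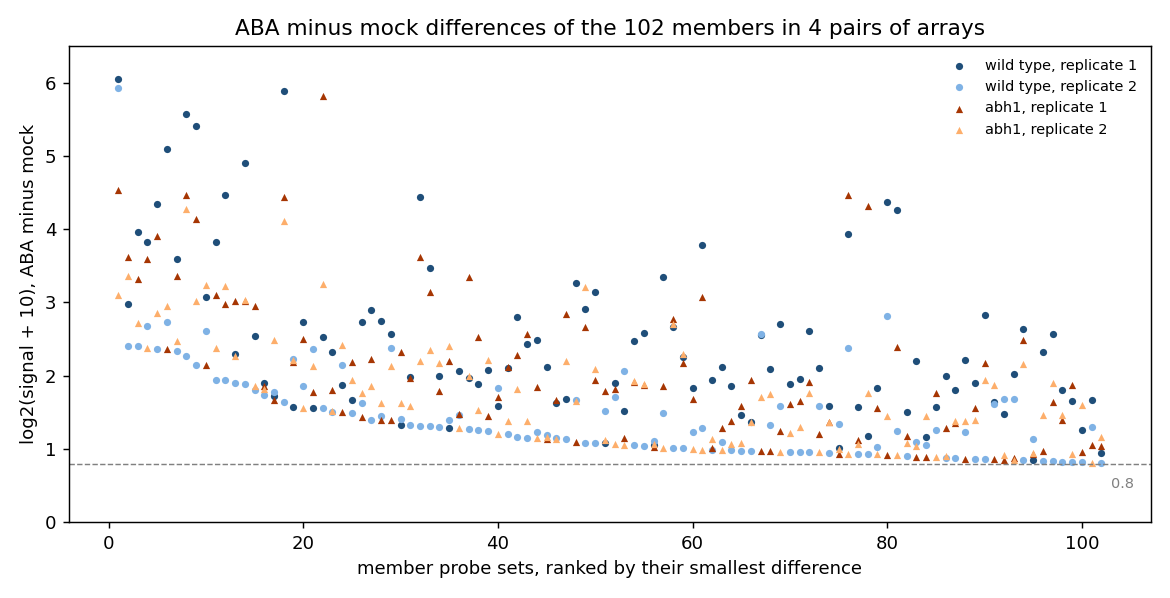
The 4 ABA minus mock differences of log2(signal + 10) (vertical) of each of the 102 members, ranked by the smallest of the 4 (horizontal); circles are wild-type pairs, triangles abh1 pairs, and the dashed line is the threshold of 0.8. Wild-type replicate 2 gives the smallest value in 56 members and wild-type replicate 1 the largest in 61.

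All 4 ABA arrays lay above all 4 mock arrays, across genotypes and replicate numbers, in 90 of the members, where 3.77% of all probe sets kept did so; the same contrast chose the members. In the other 12 the groups overlapped, and 5 of these are named genes, RALFL32, AT4G22820, AT5G53710, AT2G23910 and AT3G03870. In these genes at least 1 mock array reached the level of an ABA array of the other genotype or the other replicate number.

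Among protein families tied to desiccation and cold, 3 genes were members, and all had low mock levels (means of 14.0 to 33.5 over the 4 mock arrays). All 3 passed the signal floor only through their ABA arrays. The low level describes these 3 only, since the dehydrin LTI30, left out by name, had mock means of 931 in wild type and 747 in abh1. In each sentence of values that follows, replicate 1 comes before replicate 2. AT3G17520, of the late embryogenesis abundant (LEA) proteins that protect drying seeds and leaves, had signals of 4.07 and 19.1 in wild-type mock, 294 and 62.5 in wild-type ABA, 19.1 and 13.8 in abh1 mock and 346 and 99.7 in abh1 ABA. All ABA values were above all mock values, but the replicate 2 ABA arrays lay well below the replicate 1 ABA arrays in both genotypes, and its differences ran from 1.32 to 4.43. AT2G21820, a seed maturation protein, was at 22.3 and 22.1 in wild-type mock, 381 and 153 in wild-type ABA, 27.1 and 49.2 in abh1 mock and 372 and 318 in abh1 ABA. Its differences ran from 2.34 to 3.60, and its mean signal was higher in ABA, by 12-fold in wild type and 9.04-fold in abh1. AT4G37220, of a family of cold-acclimation membrane proteins, was at 13.3 and 91.5 in wild-type mock, 1364 and 305 in wild-type ABA, 10.1 and 19 in abh1 mock and 425 and 492 in abh1 ABA. This gene had the most unequal differences of all named members, 1.63 to 5.88, with its highest mock signal on wild-type mock replicate 2 and its highest ABA signal on wild-type ABA replicate 1. Both abh1 differences, 4.44 and 4.11, lay between the wild-type ones.

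Genes of surface lipids and the cell wall gave 6 members, with mean differences of 1.81 to 2.29 and mock levels from 210 to 2171. WSD1, which joins fatty alcohols and acyl chains into the wax esters of the cuticle, had signals of 259 and 243 in wild-type mock, 1695 and 501 in wild-type ABA, 191 and 146 in abh1 mock and 1364 and 1001 in abh1 ABA. Both abh1 differences (2.77 and 2.70) were above both wild-type ones (2.66 and 1.01), and the mean signal was higher in ABA, by 4.37-fold in wild type and 7.01-fold in abh1. AT2G37870, a lipid-transfer protein of the kind that carries lipids towards the surface, was at 174 and 309 in wild-type mock, 2511 and 770.3 in wild-type ABA, 265 and 712 in abh1 mock and 2303 and 1427 in abh1 ABA, with differences of 0.99 to 3.78. It belongs with the 6 most unequal named members, its replicate 1 pairs (3.78 and 3.07) standing well above its replicate 2 pairs (1.29 and 0.99) in both genotypes. AT1G62510, a second protein of the lipid-transfer superfamily, was the brightest of the group at 1218 and 2442 in wild-type mock, 8718 and 4442 in wild-type ABA, 2273 and 2750.0 in abh1 mock and 10276 and 10606 in abh1 ABA. In abh1 its ABA arrays were nearly equal and above both wild-type ABA arrays.

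AT1G57590, a pectin acetylesterase, which takes acetyl groups off the pectin of cell walls, was at 413 and 356 in wild-type mock, 2266 and 806 in wild-type ABA, 235 and 429 in abh1 mock and 1440.0 and 1130.4 in abh1 ABA. Its mean signal was higher in ABA, by 3.99-fold in wild type and 3.87-fold in abh1, close to equal in the 2 genotypes. AT4G30460 and AT2G05540 encode glycine-rich proteins. AT4G30460 was at 302 and 166 in wild-type mock, 1239.8 and 424 in wild-type ABA, 309 and 178 in abh1 mock and 1097 and 835 in abh1 ABA, and AT2G05540 had differences of 0.95 to 2.61. AT4G30460 differed by more in abh1 pair 2 than in abh1 pair 1, and wild-type ABA replicate 2 was again its lowest ABA value.

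There were 3 transporters among the members. AT2G41190, of the amino acid transporter family, had signals of 227 and 437 in wild-type mock, 5246 and 1701 in wild-type ABA, 558 and 306 in abh1 mock and 4451 and 2934 in abh1 ABA. Every ABA value was at least 1701 and every mock value at most 558, and its mean signal was higher in ABA, by 10.5-fold in wild type and 8.54-fold in abh1. AT1G61890, of the MATE family of exporters of organic compounds, was at 1761 and 738 in wild-type mock, 6503 and 3289 in wild-type ABA, 831 and 477 in abh1 mock and 2379 and 2599.5 in abh1 ABA. Its fold was nearly the same in both genotypes (3.92-fold in wild type and 3.81-fold in abh1), while its level in abh1 was below wild type in all 4 same-number comparisons. AT1G79520, of the cation efflux family that moves metal ions, had the smallest difference that still met the threshold and among the most even ones, 0.80 to 1.16, at 477 and 471 in wild-type mock, 925 and 828 in wild-type ABA, 559 and 589 in abh1 mock and 1166 and 1329 in abh1 ABA. Its abh1 ABA arrays were the 2 highest of the 8.

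Metabolic enzymes gave 6 members. AT4G33150 encodes the bifunctional enzyme that starts the breakdown of lysine (lysine-ketoglutarate reductase and saccharopine dehydrogenase), and its signals were 136 and 221 in wild-type mock, 813 and 533 in wild-type ABA, 213 and 226 in abh1 mock and 792 and 515 in abh1 ABA. It was higher in ABA, by 3.76-fold in wild type and 2.97-fold in abh1, and in ABA abh1 minus wild type was -0.04 on replicate 1 and -0.05 on replicate 2 on the log2 scale. AT3G57010, of the strictosidine synthase-like family, was close to nothing in mock leaves, at 4.02 and 4.93 in wild-type mock, 469 and 89.6 in wild-type ABA, 32.3 and 6.11 in abh1 mock and 207 and 115 in abh1 ABA. Its differences of 2.36 to 5.10 rest on mock values that 3 of the 4 mock arrays placed under their 10th percentile. AT4G28703, of the cupin family, was at 17.4 and 29.9 in wild-type mock, 221 and 233 in wild-type ABA, 14.9 and 11.5 in abh1 mock and 99.6 and 192 in abh1 ABA, with differences of 2.14 to 3.23. It is 1 of the named members in which wild-type ABA replicate 2 was not the lower of the wild-type ABA arrays.

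AT2G34810, of the berberine bridge enzyme family of oxidases, was at 719 and 629 in wild-type mock, 3382 and 1493 in wild-type ABA, 569.5 and 313 in abh1 mock and 1046 and 836 in abh1 ABA, and its mean signal was higher in ABA, by 3.62-fold in wild type and 2.13-fold in abh1. AT4G30470 and AT2G23910 belong to the large family of NAD(P)-binding reductases. AT4G30470 was at 468 and 407 in wild-type mock, 2854 and 846 in wild-type ABA, 637 and 386 in abh1 mock and 2354 and 1457 in abh1 ABA. AT2G23910 was at 209 and 2.95 in wild-type mock, 432 and 22.7 in wild-type ABA, 148 and 24.5 in abh1 mock and 292 and 59 in abh1 ABA, so its replicate 2 arrays lay far below its replicate 1 arrays in every group. Its differences of 0.94 to 1.34 are on the log2(signal + 10) scale, where the added 10 exceeds the signal of 2.95 on wild-type mock replicate 2, which was under that array's 10th percentile of 12.2.

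Signalling, regulation and protein handling accounted for 8 members. AT3G13672, known as SINA2, a relative of the SINA ubiquitin ligases that takes part in drought and ABA responses, was at 38.6 and 77.3 in wild-type mock, 1441 and 312 in wild-type ABA, 66.4 and 34.5 in abh1 mock and 609 and 356 in abh1 ABA. Its differences were 1.88 to 4.90, and the 2 abh1 differences, 3.02 and 3.04, were nearly equal while the wild-type ones were the extremes. AT4G22820, a stress-associated zinc-finger protein, was at 891 and 487 in wild-type mock, 3898 and 1129 in wild-type ABA, 1316 and 655 in abh1 mock and 2915 and 1485 in abh1 ABA, and wild-type ABA replicate 2 lay below abh1 mock replicate 1. RALFL32 encodes a small secreted peptide of the rapid alkalinization factor family, which signals through receptor kinases at the cell surface. It was at 507 and 218 in wild-type mock, 2176 and 530.3 in wild-type ABA, 658 and 204 in abh1 mock and 1806 and 987 in abh1 ABA, and its replicate 2 signals were below its replicate 1 signals in all 4 groups.

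AT1G49450, a WD-repeat protein, was at 78.2 and 62.4 in wild-type mock, 252 and 329 in wild-type ABA, 49.1 and 47.1 in abh1 mock and 259 and 256 in abh1 ABA. Its abh1 arrays differed by under 4 signal units within a group, and the mean signal was higher in ABA, by 4.13-fold in wild type and 5.35-fold in abh1. AT1G19970, of the family of receptors that return proteins to the endoplasmic reticulum, was at 246 and 219 in wild-type mock, 1409 and 466 in wild-type ABA, 242 and 147 in abh1 mock and 935 and 588 in abh1 ABA. AT2G28400 and AT5G45630, both of the family named senescence regulators, had a smallest difference of 0.97 and of 0.88. AT4G30490, of a family of ATPases that in yeast act in the turnover of mitochondrial proteins, had even differences of 0.90 to 1.50.

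The other 14 named members are given without a role, and their mean differences ran from 1.16 to 3.09. AT1G24600 had the largest smallest difference of all named members, at 35.4 and 13.2 in wild-type mock, 348 and 113 in wild-type ABA, 11 and 8.44 in abh1 mock and 249 and 180.1 in abh1 ABA. Its differences, 2.41 to 3.62, were larger in both abh1 pairs than in both wild-type pairs, and its abh1 mock signals were the lowest of its 8. The signal of 8.44 on abh1 mock replicate 2 was under that array's 10th percentile of 12.7. Both abh1 ABA signals lay between the 2 wild-type ABA signals, so the larger abh1 differences rest on mock values close to nothing. AT1G16850 had nearly the same difference in all 4 pairs, 1.73 to 1.91, with signals of 316 and 162 in wild-type mock, 1211 and 562 in wild-type ABA, 194 and 166 in abh1 mock and 729 and 614 in abh1 ABA. Its mean signal was higher in ABA, by 3.71-fold in wild type and 3.72-fold in abh1.

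AT4G02360 was at 192 and 81.7 in wild-type mock, 1184 and 468 in wild-type ABA, 225 and 115 in abh1 mock and 607 and 542 in abh1 ABA and had larger differences in both wild-type pairs (2.56 and 2.38) than in both abh1 pairs (1.39 and 2.14). AT3G14280 showed the same order, at 109 and 34.5 in wild-type mock, 1131 and 132 in wild-type ABA, 99.3 and 43.8 in abh1 mock and 223 and 159 in abh1 ABA, with wild-type ABA replicate 1 far above its other 7 arrays. AT5G53710, at 155 and 71 in wild-type mock, 1238 and 162 in wild-type ABA, 197 and 67.7 in abh1 mock and 1301 and 708 in abh1 ABA, had differences of 1.09 to 3.21. In this gene wild-type ABA replicate 2 was the lowest ABA value, and it lay below the signal of abh1 mock replicate 1. AT1G11210 was at 561 and 560.3 in wild-type mock, 1197 and 1627 in wild-type ABA, 331 and 359 in abh1 mock and 1173 and 795 in abh1 ABA, and AT2G25625 at 286 and 265 in wild-type mock, 2994 and 765 in wild-type ABA, 327 and 412 in abh1 mock and 1219 and 845 in abh1 ABA. In AT1G11210 wild-type ABA replicate 2 was the highest array, which set it apart from AT2G25625, where wild-type ABA replicate 1 was. AT5G39520, among the 6 most unequal named members, was at 93.4 and 119 in wild-type mock, 1972 and 295 in wild-type ABA, 212 and 157 in abh1 mock and 1154 and 305 in abh1 ABA, with differences of 0.91 to 4.26; its replicate 1 pairs gave 4.26 and 2.39 and its replicate 2 pairs 1.24 and 0.91. The other 6 genes without a role, AT1G72240, AT4G28085, AT5G15190, AT5G03120, AT3G03870 and AT2G40435, had differences between 0.80 and 2.58.

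**Figure D3:**
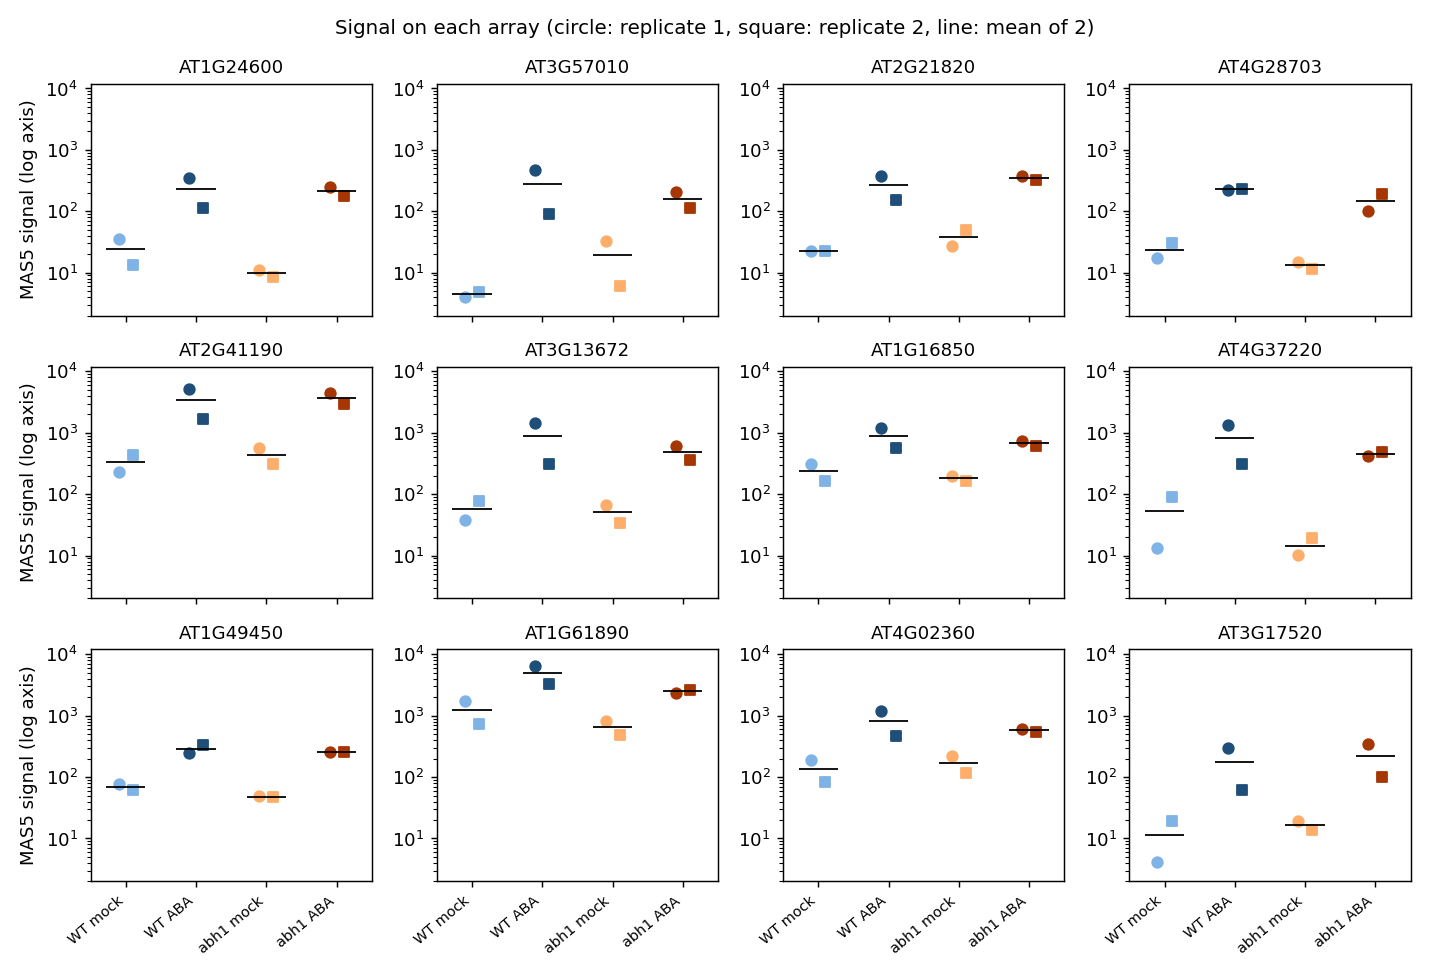
MAS5 signal on each of the 8 arrays (vertical, log axis) of the 12 named members with the largest smallest difference, by group; circles are replicate 1, squares replicate 2 and lines the mean of the 2 arrays. ABA arrays lie above mock arrays in all 12, and wild-type ABA replicate 2 lies below replicate 1 in all but AT4G28703 and AT1G49450.

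Of the 61 members with no gene in the annotation, the 4 with the largest smallest difference are given by probe set identifier. The probe set 247718_at led all 102 members, at 132 and 15.5 in wild-type mock, 9403 and 1537 in wild-type ABA, 192 and 421 in abh1 mock and 4678 and 3673 in abh1 ABA. Its differences in wild type, 6.05 and 5.92, were the largest of the members in either wild-type pair, and those in abh1 were 4.54 and 3.10, with higher mock values in abh1 than in wild type. The difference of 5.92 rests on the signal of 15.5 on wild-type mock replicate 2, near that array's 10th percentile of 12.2. The brightest of the 4, 247717_at, was at 1219 and 722 in wild-type mock, 17367 and 4691 in wild-type ABA, 993 and 1828 in abh1 mock and 12033 and 9524 in abh1 ABA. The other 2 were 260357_at, with differences of 2.40 to 3.97, and 247723_at, with 2.36 to 4.34. A further 1, picked after its values were seen, had the most even differences of any member: 259516_at, at 7657 and 6461 in wild-type mock, 15905 and 13966 in wild-type ABA, 7413 and 6899 in abh1 mock and 15130.5 and 14412 in abh1 ABA, had differences of 1.03 to 1.11 and the highest mean signal of the 102.

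Of the named members, 3 are close neighbours on chromosome 4. AT4G30460 and AT4G30470 are adjacent in the RefSeq gene order (assembly TAIR10.1), and 1 gene lies between AT4G30470 and AT4G30490. No other 2 annotated genes among the 116 lay within 10 places of each other. AT4G30490 was at 433 and 363 in wild-type mock, 1242 and 687 in wild-type ABA, 608 and 405 in abh1 mock and 1381 and 868 in abh1 ABA. Beside them, AT4G30450 had differences of 0.96, 0.48, 0.34 and 1.01 (wild-type pairs 1 and 2, then abh1 pairs 1 and 2) and AT4G30500 had 0.77, 0.26, 0.15 and 0.33, so both were higher in ABA in all 4 pairs and missed the threshold. The members' genes were spread over the 5 chromosomes, with 10 on chromosome 1, 9 on chromosome 2, 5 on chromosome 3, 10 on chromosome 4 and 6 on chromosome 5. Of the 40 member genes, chromosomes 2 and 4 held 22.5% and 25.0%, against 14.7% each of the genes with a probe set kept. Chromosomes 3 and 5 held 12.5% and 15.0%, against 20.48% and 23.95%, and chromosome 1 held 25.0%, against 26.19%. The differences between these shares were not tested.

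Near the threshold, 10 members had a smallest difference from 0.80 to 0.85 and 8 probe sets outside had one from 0.75 to 0.80. Just inside were AT1G79520 (0.80), AT3G03870 (0.80), AT5G03120 (0.82) and AT5G15190 (0.83), and just outside were AT1G22160 (0.79), AT5G47550 (0.76) and AT1G02816 (0.76). A further 14 probe sets met the differences but not the signal floor, 3 of them with a mean signal from 80 to 100.

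The abh1 effect averaged over mock and ABA is a contrast that the choice of members did not use directly. It draws on the same arrays as the ABA minus mock differences and would be independent of them only if all arrays had an equal spread, and the wild-type ABA arrays were less alike than the others. It asks whether these ABA-raised transcripts stood at another level in abh1. Limma's moderated test was run on all 8 arrays, with p-values adjusted by Benjamini-Hochberg over the 14363 probe sets. By this test 0 of the 102 members passed, where 0.0139% of all probe sets did (2, both lower in abh1). With so few passing at all, the count of 0 does not show that the members stood at the same level in both genotypes. The smallest limma adjusted p of a member was 0.682. When the fit also held the replicate number (the replicate block), 0 of the 102 passed and 0.494% of all probe sets did (0.216% higher and 0.278% lower), and the smallest for a member was 0.0976. The median averaged abh1 effect of the members was 0.14 on the log2 scale, against 0.02 over all probe sets kept. The members were 59 higher and 43 lower in abh1 (42.2% lower, against 46.5% of all probe sets kept). The standard error (SE) of a member's effect had a median of 0.35, and 0.23 with the block; even the effect largest in size among the members, -1.54 ± 0.56, had a limma adjusted p of 0.961.

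An unadjusted limma p under 0.05 was reached by 15 members (14.7%) and by 4.59% of all probe sets kept, with 11 of the 15 lower in abh1 and 4 higher. Of the 659 probe sets kept that reached it, 308 were lower in abh1. With 1 array left out, this count of members rose or fell depending on which array was removed. The shares of all probe sets in those fits are not given here, so these shifts are not read as a result about the members. With the block an unadjusted limma p under 0.05 was reached by 24 members (23.5%), 13 lower and 11 higher, against 11.2% of all. Of the 1615 probe sets kept that reached it with the block, 756 were lower in abh1. An effect of at least 1 in size, in either direction, was found in 5 members (4.90%) and in 1.59% of all probe sets kept. The members' median absolute effect was 0.31 and that of all probe sets 0.16. The 4 same-number comparisons of abh1 with wild type all pointed lower in 14 members, where 8.69% of all probe sets did, and all pointed higher in 12, where 10.8% did. The difference between these shares was not tested. The plot of the averaged abh1 effect sets the members beside all probe sets kept.

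**Figure D4:**
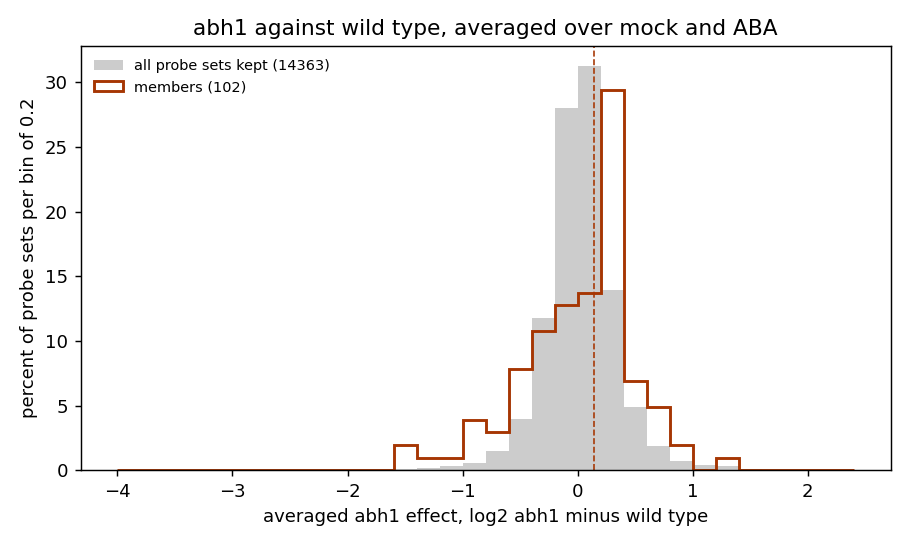
Averaged abh1 effect (log2 abh1 minus wild type, horizontal) as the percent of probe sets in each bin of 0.2 (vertical), for all 14363 probe sets kept (grey) and for the 102 members (line), with the members' median of 0.14 dashed. The members run from -1.54 to 1.21, and 5 of them are beyond 1 in size.

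Both ABA comparisons between the genotypes turned with the replicate number. In ABA, 76 of the 102 members were lower in abh1 than in wild type on replicate 1 (median difference -0.35) and 25 were lower on replicate 2 (median 0.37), where the medians over all probe sets kept were 0.10 and -0.02. In mock it was 47 and 41 members (medians 0.11 and 0.08), where the medians over all were -0.0022 and 0.03. The shares of all probe sets kept that were lower in these comparisons are not given here, so only the medians can be set side by side. Both abh1 mock arrays lay below both wild-type mock arrays in 22 members and above them in 23, where 13.9% and 13.5% of all probe sets kept did so, and for the ABA arrays it was 10 and 8, where 7.15% and 10.7% did. The members' median signal was 1582 on wild-type ABA replicate 1 and 727 on wild-type ABA replicate 2, and 1196 and 859 on the abh1 ABA arrays, so the abh1 ABA arrays lay between the 2 wild-type ones. The members' median averaged abh1 effect was 0.38 with wild-type ABA replicate 1 left out and -0.21 with wild-type ABA replicate 2 left out.

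The members with the smallest p for the averaged genotype effect show its size. AT2G40435, of the genes without a stated role, had signals of 522 and 518 in wild-type mock, 1948 and 1014 in wild-type ABA, 231 and 358 in abh1 mock and 727 and 847 in abh1 ABA. Its abh1 value was below the wild-type value in 4 of 4 same-number comparisons, and its averaged effect was -0.83 ± 0.26 (SE, n = 2 arrays a group), 1.78-fold lower, with a limma adjusted p of 0.829 and 0.244 with the block. The other 3 have no gene in the annotation. 266555_at was at 120.5 and 152 in wild-type mock, 403 and 444 in wild-type ABA, 198 and 186 in abh1 mock and 935 and 743 in abh1 ABA, higher in abh1 in 4 of 4 comparisons (log2 0.72 ± 0.20, limma adjusted p = 0.682, 0.153 with the block). 251642_at was higher in 4 of 4 (log2 0.80 ± 0.24, limma adjusted p = 0.786), and 264146_at lower in 3 of 4 (log2 -0.78 ± 0.24, limma adjusted p = 0.824). With the block the adjusted p-values of these 4 ran from 0.153 to 0.244, and none passed.

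Among the other named members, AT2G34810, the berberine bridge enzyme family gene, was lower in abh1 in 4 of 4 comparisons (log2 -0.96 ± 0.31, 1.94-fold; limma adjusted p = 0.876, and 0.0976 with the block, the lowest of all members). AT1G61890, the MATE family transporter, was lower in 4 of 4 as well (log2 -0.87 ± 0.35; limma adjusted p = 1.0, and 0.185 with the block), and so was AT1G11210 (log2 -0.61 ± 0.21; limma adjusted p = 0.913). The ABA minus mock differences of the genotypes overlapped in all 3, in AT1G61890 (1.88 and 2.14 in wild type, 1.51 and 2.42 in abh1) and in AT1G11210 (1.08 and 1.52, 1.79 and 1.13) and in AT2G34810 (2.22 and 1.23, 0.87 and 1.39). AT4G28703 and AT5G45630 were lower in 4 of 4 too. In the other direction, AT1G62510 (log2 0.64 ± 0.29), AT1G79520 (0.39 ± 0.17), AT1G72240 (0.38 ± 0.30) and AT4G30490 (0.28 ± 0.28) were higher in abh1 in 4 of 4 comparisons. None of these genes passed limma's test, with or without the block.

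The 5 members with an effect beyond 1 in size have no gene in the annotation. 247866_at, at 89 and 101 in wild-type mock, 1509 and 565 in wild-type ABA, 14.8 and 61.2 in abh1 mock and 540.0 and 126 in abh1 ABA, had the lowest abh1 values relative to wild type (log2 -1.54 ± 0.56). 245627_at was at 384 and 566 in wild-type mock, 2259.7 and 1682 in wild-type ABA, 16 and 203 in abh1 mock and 1464 and 2011 in abh1 ABA, and 264147_at was at 463 and 1121 in wild-type mock, 1064 and 2142 in wild-type ABA, 48.9 and 415 in abh1 mock and 1165 and 1435 in abh1 ABA. In both, abh1 mock replicate 1 was the lowest of the 8 arrays and the abh1 ABA signals were within the range of the wild-type ABA signals or near it, so their ABA minus mock differences in abh1 pair 1 reached 5.82 and 4.32. 256300_at was lower in abh1 in 4 of 4 comparisons (log2 -1.05 ± 0.45), and 247718_at was higher on average (log2 1.21 ± 0.69) with 1 of 4 comparisons pointing lower.

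The size of the ABA difference itself was set side by side between the genotypes without a test, since it chose the members. It was larger on average in wild type in 55 members and in abh1 in 47, and the median of abh1 minus wild type was -0.05, against 0.03 over all probe sets kept. Both abh1 differences were above both wild-type ones in 10 members, among them AT1G24600, WSD1 and AT1G79520, where 15.0% of all probe sets kept showed that order. Both wild-type differences were above both abh1 ones in 14 members, among them AT4G02360, AT4G22820, AT3G14280, AT4G28085, AT2G23910 and AT3G03870, where 9.96% of all did. Of the genes named here, AT1G24600 and AT2G23910 each had a mock signal under the 10th percentile of its array.

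To place the members among other genes of ABA and stress biology, 9 lists with 225 entries were drawn from textbook roles, and 14 entries had a probe set paired with them, 11 of which passed the floor. For the ABA effect averaged over both genotypes, limma called 0.188% of all probe sets kept (0.167% higher and 0.0209% lower in ABA). With the block it called 2.23% (1.74% higher and 0.487% lower). Of the 11 entries, 2 had met the ABA minus mock rule, the member WSD1 and the dehydrin LTI30 (listed as XERO2, and left out of the members by name), so their ABA effects of 2.29 and 2.46 (log2) are a description. Of the other 9, limma called 0 with or without the block, and 1, IVD, had an unadjusted p under 0.05 in both fits. The share of all probe sets kept at that unadjusted p is not given here, so this count is not read as a result about the lists. The median effect of the 9 was -0.25, and that of all probe sets kept was -0.08.

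Outside the members, IVD, which acts in the breakdown of leucine, was higher in ABA in all 4 pairs without reaching the threshold of membership (log2 0.58 ± 0.18, adjusted p = 0.411, and 0.0907 with the block). It was at 359 and 341 in wild-type mock, 628 and 546 in wild-type ABA, 351 and 362 in abh1 mock and 518 and 453 in abh1 ABA. MCCA and MCCB, the subunits of the next enzyme of that pathway, had effects of -0.19 ± 0.52 (adjusted p = 0.929) and -0.61 ± 0.40 (adjusted p = 0.714). SFP1, of the sugar transporter family, had 0.46 ± 0.25 (adjusted p = 0.678), HVA22C, of a family induced by ABA in barley, 0.12 ± 0.25 (adjusted p = 0.903), and SAG101, of leaf senescence, -0.33 ± 0.30 (adjusted p = 0.780). The other 3 entries kept, ALDH10A8, AER and SE, had effects from -0.57 to -0.25. Lists of ABA signalling, of ABA synthesis and of water and ion transport had 0 entries with a probe set and are not analysed here.

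Leaf markers were bright on all arrays. RCA, the activase of the carbon-fixing enzyme Rubisco, had group means from 16677 to 19256, and LHCB4.1, a light-harvesting protein, was kept too, while SPCH and MUTE, which mark young cells of the stomatal lineage, had group means of at most 16.6. Of the 5 markers of leaf, guard cell, trichome and phloem that passed the floor, 0 passed limma's test for the ABA effect, with or without the block (FAMA of guard cells, FMA in the annotation, -0.35 ± 0.21, and TRY of trichomes -0.24 ± 0.21). These 2 and SWEET11 of the phloem had a lower signal in ABA in all 4 pairs, and their part in the members' differences was not tested. Root, inflorescence and seed markers had 0 entries with a probe set. The arrays had nearly equal trimmed means (500.04 to 500.05), with array medians of 131 to 160.5 for replicate 1 and 179.5 to 216 for replicate 2.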

How the data were processed

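The deposited intensity values are MAS5 signals on a linear scale, which the authors computed with Affymetrix Micro Array Suite per the series text and the submitters' processing notes. How that program was set is not given in the sources used here. Across arrays the 2% trimmed mean was nearly constant, so the deposited intensity was taken as scaled and was not normalised again. The 64 control probe sets were left out, 10 was added before log2, and probe sets with a mean signal of at least 100 were kept, as in the rule for members. Groups came from the sample titles. Members and gene lists were chosen with earlier results of these data known.

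Linear models with 4 group means were fitted to the 8 arrays with limma 3.58.1 in R 4.3.3 (eBayes with an intensity trend, 4 residual degrees of freedom, two-sided, Benjamini-Hochberg over all probe sets kept, threshold 0.05). They were also run on simulated data, which for this fit without the block held no effect of replicate number. Differences are log2 values with their standard error. An exact test of 2 arrays against 2 cannot go below p = 0.33, and precision is bounded by the few arrays; p-values measure the spread between these pools only. The labels state no pairing by replicate number; the departures of arrays with the same number from the mean of their group correlated at 0.387 to 0.700 in all 6 pairs of groups, above 0.1, so the number was also fitted as a block (3 residual degrees of freedom).

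The named genes were the 24 members with 1 gene and the largest smallest difference, members in a gene list, the 6 with the most unequal differences, the 4 with the smallest p for the genotype effect, 4 members without a gene, and others within their role group. Genes came from the platform annotation (13513 probe sets with 1 gene, 503 with several and 8730 others unnamed here), updated through a RefSeq gene table. Other scalings, offsets, floors and pairings, and each array left out in turn, were tried. Promoter and protein sequences are not used here.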

Additional observations from a re-analysis of the deposited data

Results flagged for a closer look

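For AT4G33150, the lysine-breakdown enzyme, abh1 minus wild type was above 0 in both mock comparisons (0.61 and 0.03, fitted 0.32) and below 0 in both ABA comparisons (-0.04 and -0.05, fitted -0.04). The opposite signs in the 2 treatments picked out this result. The fitted difference was -0.36 ± 0.52 (SE), and it was not tested. The fitted mock and ABA values each had an SE of 0.37, so all of these fitted values were smaller in size than their SE.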

How the results depend on the processing

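No member passed the genotype test under any of the 15 alternatives to the reported fit, and the members' median effect ran from 0.08 to 0.15 under the other scalings, offsets and floors. Leaving out 1 array, it ran from -0.21 (without wild-type ABA replicate 2) to 0.38 (without wild-type ABA replicate 1), and it was -0.0046 without abh1 ABA replicate 1. The count of all probe sets called for the averaged abh1 effect was 2, against 71 with the replicate block, 119 with the block and quantile normalization (added after the data were seen), 1 with quantile normalization, 0 with median centring, 1 without a floor, and 0 to 7 with 1 array left out. For the averaged ABA effect it was 27, against 320 with the block, 491 with the block and quantile normalization, 50 with quantile normalization, 0 with median centring, 15 with percentile offset and floor, 1 without a floor, and 0 to 884 with 1 array left out (884 without wild-type ABA replicate 2). List entries called were 1 (LTI30, which met the rule), against 2 with the block (WSD1 too), 3 with the block and quantile normalization (IVD too), 0 with median centring, 0 without a floor, and 0 to 2 with 1 array left out (0 in 6 of 8 cases). The rule gave 102 members, and 63 when every ABA array was set against every mock array of its genotype, 59 with a threshold of 1, and 235 without wild-type pair 2 (chosen after the data were seen). It gave 80 to 119 under the other settings, and 99 of the 117 under quantile normalization were among the 102. The causes were not tested. Signals under the 10th percentile of an array limit 5 named members.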

Other observations

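A pair of LEA genes outside the members had a low signal on these arrays. LEA18 was at 0.691 and 1.37 in wild-type mock, 142 and 3.78 in wild-type ABA, 0.912 and 1.34 in abh1 mock and 126 and 42.5 in abh1 ABA, with log2(signal + 10) differences of 3.83 and 0.28 in wild type and 3.64 and 2.21 in abh1. Its mean signal was under the floor of 100, and in mock leaves it was close to nothing on every array. On wild-type ABA replicate 2 its signal of 3.78 was also under that array's 10th percentile of 11.5. Wild-type pair 2 therefore does not show whether the gene was higher in ABA. In wild-type pair 1 and in both abh1 pairs it was higher in ABA. AtLEA4-1 was at 13.6 and 12.6 in wild-type mock, 56.9 and 90.9 in wild-type ABA, 25.3 and 38.4 in abh1 mock and 58.9 and 51.5 in abh1 ABA, with differences of 1.50 and 2.16 in wild type and 0.96 and 0.35 in abh1. AtLEA4-1 was under the floor as well, and its signal was higher in ABA in all 4 pairs. Neither was tested.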
